A study of Mus musculus with 8 samples.

Results

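Gluconeogenesis and fructose use in the kidney were read through 9 genes chosen by pathway, with earlier results of these data known. They were Pcx, Pck1, Pck2, Fbp1, Fbp2, G6pc (newer symbol G6pc1), Slc37a4, G6pc3 and Khk. All 9 had a probe set naming that gene alone, and each had only 1, out of 19936 genes measured. The measurements were Affymetrix arrays of whole-kidney total RNA from 8 female mice of a mixed C57BL/6 - SV127 background, 1 array a mouse. The labels give 4 arrays as mutant, with the genotype Pax8-rtTA;LC-1;Vhl-floxed, and 4 as control littermates, whose alleles are not listed. Both groups were given doxycycline (0.2 mg/ml, in drinking water with 5% sucrose) from 3 weeks of age for 2 weeks, followed by 1 week of plain water, and kidneys were taken at 6 weeks. Pax8-rtTA with LC-1 switches on Cre in Pax8-expressing kidney tubule cells under doxycycline, so the other cells of the kidney keep their Vhl alleles. Sucrose, which supplies glucose and fructose, was thus given to both groups.

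The proximal tubule is, beside the liver, the main site where glucose is made from lactate, glutamine and glycerol. Pyruvate carboxylase (Pcx) makes oxaloacetate in the mitochondrion, and phosphoenolpyruvate carboxykinase turns it into phosphoenolpyruvate, either in the cytosol (Pck1) or in the mitochondrion (Pck2). Fructose-1,6-bisphosphatase (Fbp1, Fbp2) and the glucose-6-phosphatase system of the endoplasmic reticulum (G6pc, with its transporter Slc37a4) carry out the last one-way steps. Ketohexokinase (Khk) opens fructose use by phosphorylating fructose, which then joins the same pathway.

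The labels were checked first. Vhl was 1.22-fold higher, not lower, in the mutant-labelled arrays (8.34 ± 0.0909 against 8.05 ± 0.118, SD, n = 4 each, values on the log2 scale; limma adjusted p = 0.0387). The call did not survive the replicate block (limma adjusted p = 0.0558), nor the removal of mutant array 2, 3 or 4, or of control array 1, 2 or 3 (0.0785 to 0.114). Egln3, a gene that hypoxia-inducible factor (HIF) induces when Vhl is lost, was 7.81-fold lower in the mutant-labelled arrays (8.82 ± 0.229 against 11.8 ± 0.196, SD, n = 4 each; limma adjusted p = 2.15e-06). Both run against the labels, so the directions that follow compare the 2 labels only, and none is a direction of Vhl loss. Whether the Vhl probe set lies in the deleted part is not given in the sources used here.

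Of the 9 genes, Pcx and Pck2, which together lead from pyruvate to phosphoenolpyruvate inside the mitochondrion, fell in the mutant-labelled arrays. None rose, and 7 did not pass the test, among them Pck1, Fbp1 and G6pc. The test was limma over all 19936 genes, two-sided, with Benjamini-Hochberg adjustment over all of them and calls at an adjusted p under 0.05. Of all genes 7.23% were called, 4.64% as lower and 2.59% as higher. At an unadjusted p under 0.05, which 21.8% of all genes reached, 4 of the 9 were lower and 1 was higher. The median log2 difference of the 9 was -0.02, beside 0.03 over all genes. In whole kidney, fewer cells of a type and less RNA per cell cannot be told apart.

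**Figure D1:**
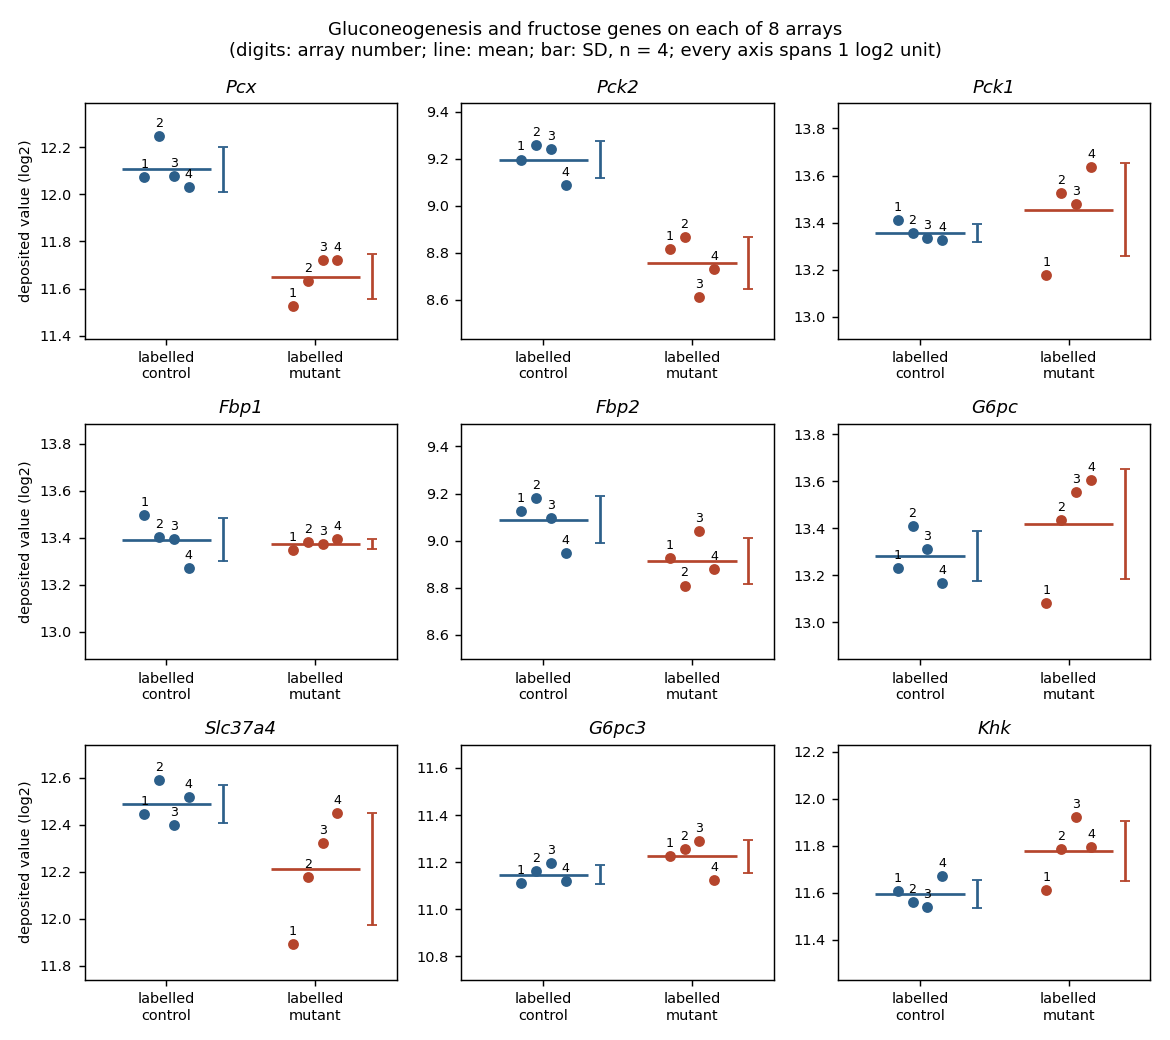
Deposited log2 value (vertical axes, each spanning the same width) of the 9 genes on the 4 control-labelled arrays (blue) and the 4 mutant-labelled (red); digits are array numbers, lines are means and bars are SD (n = 4). Pcx and Pck2 are the genes whose groups do not overlap, and mutant array 1 is the lowest of its group for 6 of the 9 genes.

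Pcx, which feeds pyruvate into the pathway, read 11.5, 11.6, 11.7 and 11.7 on mutant arrays 1 to 4 and 12.1, 12.2, 12.1 and 12.03 on control arrays 1 to 4. Every mutant array lay below every control array, and the gap between the groups (11.72 to 12.03) was wider than the range of either. The means were 11.7 ± 0.0938 and 12.1 ± 0.0963 (SD, n = 4 each), 1.37-fold lower in the mutant-labelled arrays (log2 difference -0.46, SE 0.0680, limma adjusted p = 0.00362). Groups that did not overlap were found for 14.8% of all genes, 8.20% with the mutant arrays lower and 6.57% with them higher. Over the alternative settings the log2 difference ran from -0.53 to -0.38.

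Pck2, the mitochondrial phosphoenolpyruvate carboxykinase, read 8.81, 8.87, 8.61 and 8.73 on mutant arrays 1 to 4 and 9.20, 9.26, 9.24 and 9.09 on control arrays 1 to 4. The groups did not overlap here either, and array 3 was the lowest of the mutant arrays, unlike for Pcx, where array 1 was. The means were 8.76 ± 0.112 and 9.20 ± 0.0768 (SD, n = 4 each), 1.36-fold lower in the mutant-labelled arrays (log2 difference -0.44, SE 0.0685, limma adjusted p = 0.00442). The log2 difference ran from -0.53 to -0.35 over the alternative settings. Between arrays of the same number Pcx was lower by 0.31 to 0.62 and Pck2 by 0.36 to 0.63 in 4 of 4 pairs. Of the genes that did not pass, Fbp2 and Slc37a4 were also lower, and Khk and G6pc3 higher, in 4 of 4 pairs. The smallest of these pair differences was 0.003 for Khk, 0.006 for G6pc3, -0.05 for Fbp2 and -0.07 for Slc37a4. The share of all genes with the same sign in 4 of 4 pairs is not given here.

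Pck1, the cytosolic carboxykinase, did not pass. It read 13.2, 13.5, 13.5 and 13.6 on mutant arrays 1 to 4 and 13.4, 13.4, 13.3 and 13.3 on control arrays 1 to 4. Mutant array 1 lay below all 4 control arrays and the other 3 mutant arrays above them, so the groups overlapped in both directions. The log2 difference was 0.10, with a 95% interval from -0.10 to 0.30 (limma adjusted p = 0.562), and 0.19 without mutant array 1 (limma adjusted p = 0.102). The control arrays lay close together (SD 0.0388), the mutant arrays did not (SD 0.198, n = 4 each). Whether Pck2 and Pck1 changed by different amounts was tested on the per-array difference of their log2 values. That difference was lower by 0.54 in the mutant-labelled arrays, with no overlap (exact permutation, two-sided, p = 0.0286; 4 against 4 arrays allow none smaller). Adjusted over the 3 pairs of related genes tested, the p was 0.0857 and did not pass.

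The promoters of these 2 genes that fell and of 2 that did not pass, Pck1 and G6pc, are shown for a reader to set beside their values; no difference between Pcx or Pck2 and G6pc was tested. Each is the 250 bases before the RefSeq start on assembly GRCm38.p6, all on the plus strand, printed 5′ to 3′: Pcx at chr19:4510222-4510471 (the upstream of its 2 listed starts), Pck2 at chr14:55540016-55540265, Pck1 at chr2:173152823-173153072 and G6pc at chr11:101367466-101367715. Capitals mark matches, on either strand, to the HIF core ACGTG or GCGTG, the cAMP response core ACGTCA, the CCAAT box CCAAT and the TATA box TATAAA.
Pcx promoter: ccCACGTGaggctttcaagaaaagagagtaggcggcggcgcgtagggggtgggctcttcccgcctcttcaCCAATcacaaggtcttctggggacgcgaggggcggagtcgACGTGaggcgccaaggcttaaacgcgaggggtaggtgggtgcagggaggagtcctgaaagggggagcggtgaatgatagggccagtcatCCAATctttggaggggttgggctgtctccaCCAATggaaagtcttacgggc
Pck2 promoter: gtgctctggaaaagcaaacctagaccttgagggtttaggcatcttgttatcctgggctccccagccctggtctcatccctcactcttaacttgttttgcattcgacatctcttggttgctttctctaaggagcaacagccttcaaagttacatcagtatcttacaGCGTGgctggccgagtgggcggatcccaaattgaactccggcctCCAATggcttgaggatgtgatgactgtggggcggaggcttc
Pck1 promoter: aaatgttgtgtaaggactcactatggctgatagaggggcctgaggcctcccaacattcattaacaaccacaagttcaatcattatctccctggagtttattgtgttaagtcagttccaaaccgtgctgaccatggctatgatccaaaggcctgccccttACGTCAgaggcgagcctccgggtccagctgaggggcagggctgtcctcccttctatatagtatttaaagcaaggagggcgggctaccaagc
G6pc promoter: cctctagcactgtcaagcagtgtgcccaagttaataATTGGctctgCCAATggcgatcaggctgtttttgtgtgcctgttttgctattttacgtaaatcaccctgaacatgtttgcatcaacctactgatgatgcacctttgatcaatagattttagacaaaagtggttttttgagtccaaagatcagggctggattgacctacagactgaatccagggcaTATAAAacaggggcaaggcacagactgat

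The printed Pcx sequence held ACGTG at 2 places, the one farther from the start being the palindrome CACGTG that matches on both strands, and CCAAT at 3 places. The printed Pck2 sequence held GCGTG once, 85 to 81 bases before the start, and CCAAT once. Pck1 held the core ACGTCA once, 91 to 86 bases before the start, and neither HIF core. G6pc held TATAAA 29 to 24 bases before its start and CCAAT at 2 places. All 9 genes matched the promoter table, with 12 starts. ACGTG occurred before 4 of the 12 starts, those of Fbp2, Pcx, Khk and G6pc3, beside 16.6% of all 32851 windows of that length. In Fbp2, Khk and G6pc3 every ACGTG match was part of the palindrome CACGTG. For GCGTG the counts were 1 of 12 and 28.2%, for ACGTCA 3 of 12 and 6.47%, for CCAAT 4 of 12 and 33.8%, and for TATAAA 2 of 12 and 12.4%. The 3 starts with ACGTCA were that of Pck1 and the first 2 of Slc37a4, whose windows overlap and hold the same site. The downstream Pcx start, not printed, had no match to any of these runs. ACGTCA can overlap ACGTG read on the other strand. A match is a run of letters, not a shown binding site; it was present before genes that fell and before genes that did not pass.

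**Figure D2:**
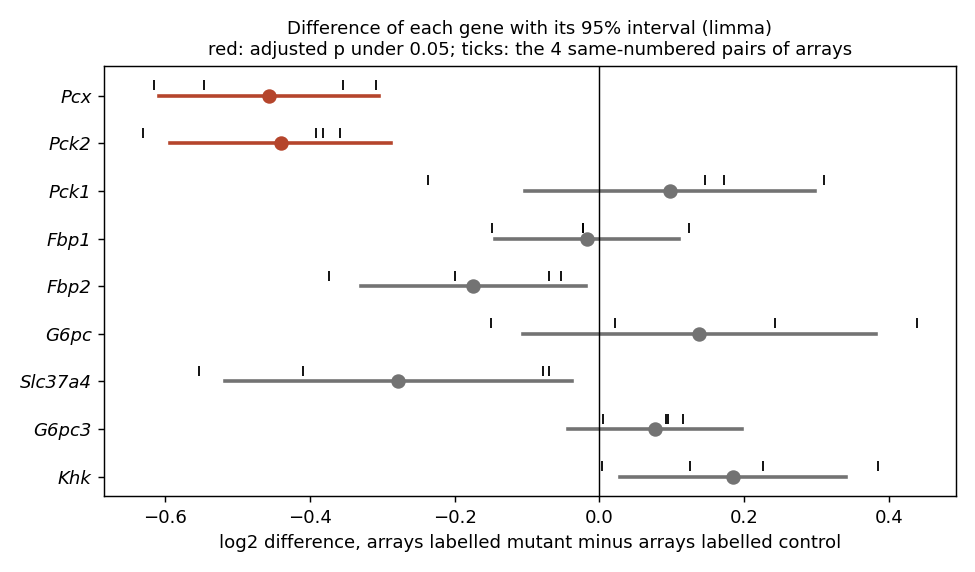
Log2 difference, mutant-labelled arrays minus control-labelled arrays (horizontal axis), for the 9 genes, with limma's 95% interval as a bar; red marks an adjusted p under 0.05 and short ticks are the 4 differences between arrays of the same number. The intervals of Pcx and Pck2 lie wholly below -0.28, and those of Pck1, Fbp1, G6pc and G6pc3 include 0.

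Fbp1, the bisphosphatase of liver and kidney, was the most even of the 9 genes among the mutant-labelled arrays. It read 13.35, 13.38, 13.37 and 13.39 there and 13.50, 13.40, 13.40 and 13.27 on control arrays 1 to 4. All 4 mutant arrays lay within the control range. The log2 difference was -0.02 with a 95% interval from -0.14 to 0.11 (limma adjusted p = 0.885). On the deposited scale that interval leaves out a change of the size measured for Pcx. Fbp1 read above the 99th percentile of probe sets, however, and compression near the top of the scale was not tested.

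Fbp2, the isoform known from muscle, read 8.92, 8.81, 9.04 and 8.88 on mutant arrays 1 to 4 and 9.13, 9.18, 9.10 and 8.95 on control arrays 1 to 4. Of the mutant arrays, 3 lay below every control array and array 3 overlapped them. The log2 difference was -0.17 (95% interval -0.33 to -0.02, limma adjusted p = 0.182) and did not pass. Fbp1 and Fbp2 are neighbouring genes with related sequences, and how far one's RNA reaches the other's probe set is not given in the sources used here. The per-array difference Fbp2 minus Fbp1 was lower by 0.16 in the mutant-labelled arrays (exact two-sided permutation p = 0.0571, adjusted over the 3 pairs 0.0857). Skeletal muscle markers were 0 called of 6 in the limma test, with 1 at an unadjusted p under 0.05, and their mean level was 7.18 to 7.34 on mutant and 7.09 to 7.24 on control arrays.

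G6pc, the catalytic subunit that releases free glucose, read 13.1, 13.4, 13.6 and 13.6 on mutant arrays 1 to 4 and 13.2, 13.4, 13.3 and 13.2 on control arrays 1 to 4. As for Pck1, mutant array 1 lay below all control arrays and the other 3 mutant arrays above them. The log2 difference was 0.14 (95% interval -0.11 to 0.38, limma adjusted p = 0.495). It was 0.25 without mutant array 1 (limma adjusted p = 0.0891). Removal of both mutant arrays 1 and 2 gave 0.30 (0.0791), and removal of 3 and 4 gave -0.02 (0.909). The levels of Pck1, Fbp1 and G6pc lay above the 99th percentile of probe sets on every array (12.8 to 12.9), near the top of a scale that ended at 14.7; compression there was not tested.

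Slc37a4, which brings glucose-6-phosphate to G6pc, did not pass and had the opposite sign. It read 11.9, 12.2, 12.3 and 12.4 on mutant arrays 1 to 4 and 12.4, 12.6, 12.4 and 12.5 on control arrays 1 to 4. Mutant arrays 1, 2 and 3 lay below every control array and array 4 overlapped them. The log2 difference was -0.28 (95% interval -0.52 to -0.04, limma adjusted p = 0.168). It was -0.17 without mutant array 1 (0.265) and -0.27 without mutant array 2 (0.308). Removal of both mutant arrays 1 and 2 left -0.10 (0.580). With 3 and 4 removed instead it passed at -0.45 (limma adjusted p = 0.0307), on 2 mutant against 4 control arrays. The size of this difference therefore depended on which mutant arrays were kept. Of single removals, that of mutant array 1 shrank it most.

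G6pc3, the broadly expressed phosphatase related to G6pc, read 11.23, 11.26, 11.29 and 11.12 on mutant arrays 1 to 4 and 11.11, 11.16, 11.20 and 11.12 on control arrays 1 to 4. Its log2 difference was 0.08 (95% interval -0.04 to 0.20, limma adjusted p = 0.439), with 3 mutant arrays above every control array. The per-array difference G6pc3 minus G6pc was lower by 0.06 in the mutant-labelled arrays (exact two-sided permutation p = 0.657, the same after adjustment over the 3 pairs).

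Khk, the first enzyme of fructose use, read 11.61, 11.78, 11.92 and 11.80 on mutant arrays 1 to 4 and 11.61, 11.56, 11.54 and 11.67 on control arrays 1 to 4. Of the mutant arrays, 3 lay above every control array and array 1 lay among them. The log2 difference was 0.18 (95% interval 0.03 to 0.34, limma adjusted p = 0.158), and 0.24 without mutant array 1 (limma adjusted p = 0.0526). Khk did not pass in any setting run.

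Mutant array 1 was the lowest of the 4 mutant arrays for 6 of the 9 genes, Pck1, G6pc, Fbp1, Pcx, Slc37a4 and Khk. Over all genes it was the lowest for 25.5%. Control array 4 was likewise the lowest of its group for 6 of the 9, and for 26.8% of all genes. Mutant array 1 also had the lowest mean of the liver marker list (7.53, other mutant arrays 8.11 to 9.01, control arrays 8.30 to 8.60). Alb, the albumin gene, read 7.67 on it, 9.70 to 11.4 on the other mutant arrays and 10.1 to 10.9 on the control arrays. Liver markers were 0 called of 7 in the limma test, with 0 at an unadjusted p under 0.05. The proximal tubule marker mean was 12.2 on mutant array 1 and 12.3 to 12.4 on the others, against 12.0 to 12.2 on control arrays. The part of any of these in the spread of Pck1 and G6pc was not tested.

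Cell type markers were read beside these results. All 21 measured proximal tubule markers lay above the array medians of 7.55 to 7.58 by group mean, the lowest being Slc7a13 with a mean of 8.14 in the mutant-labelled arrays. Of the 21, 7 rose, 1 fell and 13 did not pass, with a median log2 difference of 0.09. At an unadjusted limma p under 0.05, 9 were higher and 1 lower. All 8 endothelial markers fell (median -0.71; mean level 10.1 to 10.2 on mutant and 10.7 to 11.0 on control arrays). The part of either list in the falls of Pcx and Pck2 was not tested. Of adipocyte markers, a cell type that also holds Pcx and Pck1, 0 of 5 passed the limma test, with 1 at an unadjusted p under 0.05 (mean level 7.07 to 7.51 on mutant and 7.15 to 7.65 on control arrays). Of 6 loop of Henle markers 4 rose, of 13 distal tubule and collecting duct markers 4 rose, and of 5 podocyte markers 1 fell. At an unadjusted limma p under 0.05, 6, 5 and 1 of these were higher and 0, 1 and 1 lower. Of 7 immune markers 0 passed, with 2 at an unadjusted p under 0.05. The immune mean level was 8.13 and 8.06 on mutant arrays 1 and 2 and 7.56 and 7.55 on mutant arrays 3 and 4. On control arrays it was 7.83 to 8.10.

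The reversible steps that gluconeogenesis shares with glycolysis fell, by log2 differences of -1.43 to -0.54, beside -0.46 for Pcx; whether they fell by more was not tested. All 5 measured members of that list, of 9 chosen, were lower in the mutant-labelled arrays, with a median log2 difference of -0.75 and no overlap between groups. Aldoc, an aldolase gene, read 9.20 to 9.36 on mutant and 10.5 to 10.8 on control arrays, 2.69-fold lower (limma adjusted p = 1.30e-05). Pgk1, phosphoglycerate kinase, was 1.72-fold, Tpi1, triosephosphate isomerase, 1.69-fold and Pgam1, phosphoglycerate mutase, 1.60-fold lower, and Aldoa, named after its value was seen, 1.45-fold lower. The direction of carbon flow cannot be read from genes that serve both directions.

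Of the one-way steps of glycolysis that oppose the 9 genes, 8 were measured: 5 fell, 1 rose and 2, Hk3 and Pklr, did not pass (log2 differences 0.10 and 0.09). Pfkl, whose phosphofructokinase opposes fructose bisphosphatase, was 3.72-fold lower, Pfkp 3.31-fold, Hk2, a hexokinase opposing glucose-6-phosphatase, 2.42-fold, and Pkm, pyruvate kinase, 1.53-fold lower. These 4 had limma adjusted p between 5.64e-07 and 0.00279. Hk1 fell 1.27-fold and Pfkm rose 1.18-fold; both were named after their values were seen. Hk1 lost its call on removal of mutant array 2 or 4, or of control array 1, 2 or 3 (limma adjusted p 0.0521 to 0.0687), without mutant arrays 3 and 4 (0.0606), and for the mean of its 2 probe sets (-0.10, limma adjusted p = 0.305). Pfkm lost its call on removal of mutant array 1, 2 or 3, or of each control array (limma adjusted p 0.0501 to 0.104).

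**Figure D3:**
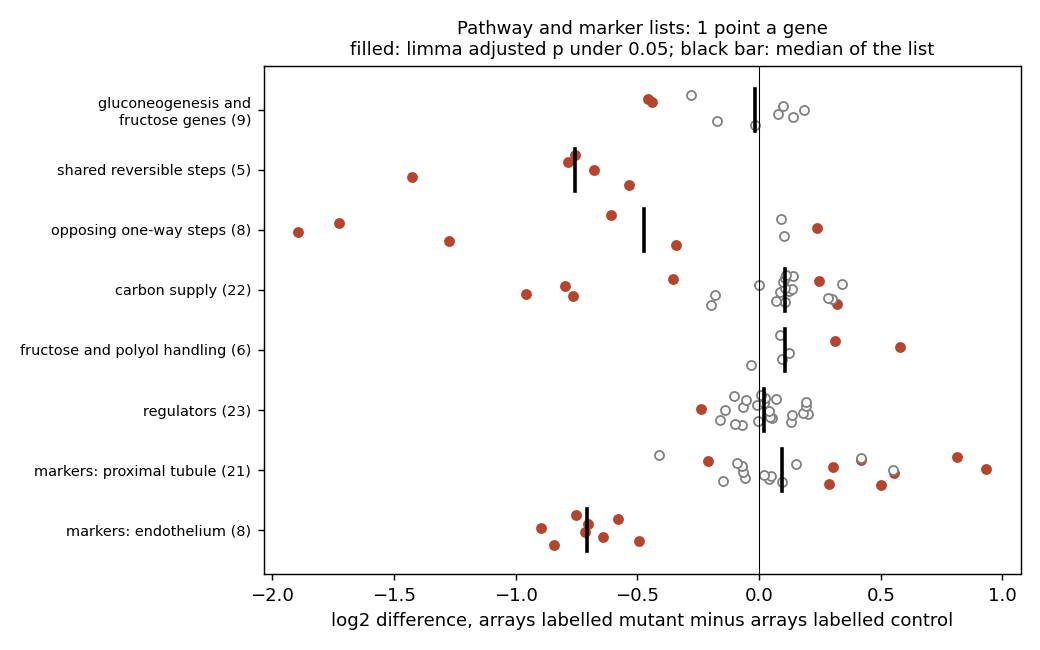
Log2 difference, mutant-labelled arrays minus control-labelled arrays (horizontal axis), 1 point a gene, for the 9 genes, 5 pathway lists and 2 marker lists, with the number measured in brackets; filled points passed limma at an adjusted p under 0.05 and black bars are medians. The shared reversible steps (median -0.75), the endothelial markers (-0.71) and the opposing one-way steps (-0.47) lie to the left of the 9 genes (-0.02). The fructose list (0.11), carbon supply (0.11), proximal tubule markers (0.09) and regulators (0.02) lie to the right.

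Among fructose and polyol genes, the fructose carriers of the brush border rose. Of 6 measured, of 9 chosen, 2 rose and 0 fell in the limma test (at an unadjusted p under 0.05 also 2 and 0), and the median log2 difference was 0.11. Slc2a5, the fructose transporter GLUT5, read 10.3, 10.6, 10.8 and 10.6 on mutant arrays 1 to 4 and 9.85, 9.98, 10.02 and 10.2 on control arrays 1 to 4. The groups did not overlap, and the level was 1.49-fold higher in the mutant-labelled arrays (10.6 ± 0.201 against 10.005 ± 0.132, SD, n = 4 each; limma adjusted p = 0.00848). It did not pass without mutant arrays 3 and 4 (limma adjusted p = 0.0513). Slc5a10, a sodium-coupled carrier of mannose and fructose, read 12.22 to 12.36 on mutant and 11.79 to 12.10 on control arrays, 1.24-fold higher (limma adjusted p = 0.0275). It lost its call with the replicate block (limma adjusted p = 0.0604). Removal of mutant array 2, 3 or 4, or of control array 2 or 3, ended it too (0.0613 to 0.0798). Slc2a2 (the basolateral glucose and fructose carrier GLUT2), Tkfc (triokinase), Glyctk (glycerate kinase) and Mlxipl (the sugar-responsive factor ChREBP) did not pass, with log2 differences from -0.03 to 0.12. Mutant array 1 was the lowest mutant array for Slc2a5, as for Khk. A rise was not particular to the fructose carriers. Of the 21 proximal tubule markers 7 rose and 1 fell, and their log2 differences reached 0.93.

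Genes that supply carbon to gluconeogenesis moved in both directions. Of 22 measured, of 25 chosen, 4 fell, 2 rose and 16 did not pass, with a median log2 difference of 0.11. At an unadjusted limma p under 0.05, 7 were higher and 6 lower, 13 of 22 beside 21.8% of all genes. Ldha, lactate dehydrogenase A, fell 1.94-fold (limma adjusted p = 3.48e-05). Gpt2, the mitochondrial alanine aminotransferase, which makes pyruvate from alanine, read 9.39 to 9.96 on mutant and 10.42 to 10.50 on control arrays, 1.70-fold lower (limma adjusted p = 0.00222). Gpt, the cytosolic form, had a log2 difference of 0.28 (limma adjusted p = 0.260). The difference between Gpt2 and Gpt was not tested. The aspartate-glutamate carriers, which export aspartate from the mitochondrion, are Slc25a13 and Slc25a12; the difference between them was not tested. Slc25a13 (citrin) read 10.5 to 10.7 on mutant and 10.7 to 11.1 on control arrays, 1.28-fold lower (limma adjusted p = 0.0258). Slc25a12 (aralar), named after its value was seen, read 11.58 to 11.66 on mutant and 11.35 to 11.41 on control arrays, 1.19-fold higher (0.0108); it did not pass without mutant arrays 3 and 4 (0.0538).

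Slc16a1, the lactate carrier MCT1, was 1.74-fold lower (limma adjusted p = 0.0499), with overlapping groups. Removal of mutant array 1 or 2, or of control array 2, 3 or 4, ended the call (0.0965 to 0.136), as did median centring (0.0520), eBayes with trend and robust (0.0870) and array weights (0.0853). Its log2 difference moved from -0.80 to -0.44 without mutant arrays 1 and 2. The Slc25a13 call ended on removal of mutant array 1, 3 or 4, or of control array 1, 2 or 3 (0.0548 to 0.0808). Glud1, glutamate dehydrogenase, named after its value was seen, was 1.25-fold higher (0.0386). The replicate block (0.0653) and removal of mutant array 2, 3 or 4, or of each control array (0.0644 to 0.102), ended that call. These p-values are limma's, adjusted over all genes. The biotin genes Hlcs and Btd, on which pyruvate carboxylase depends, did not pass (log2 differences -0.18 and -0.20, limma adjusted p = 0.185 and 0.0706). The sodium-coupled lactate carriers Slc5a8 and Slc5a12, which bring filtered lactate into proximal cells, and Ldhb had log2 differences from 0.08 to 0.14 and did not pass.

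Of the regulators known to act on these genes, Irs1 passed, by a margin that most alternatives removed. Of 23 measured, of 25 chosen, 1 fell and 0 rose in the limma test, with 4 at an unadjusted p under 0.05, and the median log2 difference was 0.02. Irs1, an insulin receptor substrate, was 1.18-fold lower (9.41 ± 0.114 against 9.65 ± 0.0205, SD, n = 4 each; limma adjusted p = 0.0484). It lost the call with the replicate block (0.0643), after quantile normalization (0.0868) or median centring (0.0525), without mutant arrays 1 and 2 (0.0590) or 3 and 4 (0.110), on removal of mutant array 1, 3 or 4, or of each control array (0.0737 to 0.125), and for the mean of its 2 probe sets (log2 difference -0.11, limma adjusted p = 0.385). Ppargc1a, Foxo1, Creb1, Hnf4a and Cebpb, transcriptional regulators of Pck1 and G6pc, had log2 differences from -0.16 to 0.20 and did not pass; they were named after their values were seen. Ppargc1a, the coactivator PGC-1alpha (log2 difference 0.19, limma adjusted p = 0.0760), passed after quantile normalization (0.0233), with the upper 60% of probe sets (0.0464), trend and robust (0.0338), array weights (0.0389) and without control array 4 (0.0388).

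Likeness between profiles was measured as the root mean square difference over the 8 arrays after centring each gene on its own mean. The nearest 3 of all other genes were Rlf, Rpl5 and Mfge8 for Pcx (0.0360 to 0.0509 log2 units) and Inpp5d, 1600014C23Rik and Ckap4 for Pck2 (0.0457 to 0.0501). For Khk they were Rdh7, Cldn10 and Gfm1 (0.0247 to 0.0373), for Pck1 Susd3, Mertk and Dsc2 (0.0429 to 0.0507), and for G6pc Ppp3cc, Emb and Ndufb10 (0.0583 to 0.0657). Those of Slc37a4 were Cpox, Sorbs3 and Piga (0.0505 to 0.0555), and those of Fbp2 were Slc27a1, Cyp4f16 and Klhl5 (0.0377 to 0.0436). Fbp1 and G6pc3 varied less over the arrays than the median gene and were not matched. None of the 9 genes was allowed as a match.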

How the data were processed

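Whole-kidney RNA was read on 8 Affymetrix arrays, 4 labelled mutant and 4 labelled control. The authors' deposited values are on a log2 scale (1.92 to 14.7) for 35556 probe sets; limma is named, without a version, per the submitters' processing notes, and background correction, summarization, normalization and build are not given in the sources used here. Between-array normalization is thus unknown, and no background reading allows a gene to be called absent.

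Probe sets were named by the platform annotation and brought to current symbols with RefSeq's gene table (GRCm38.p6). Of the probe sets 21789 named 1 gene, 1621 several and 12146 were unlisted; 21701 of the 21789 matched a current gene. This gave 19936 genes, each read by its probe set of highest mean, without a filter. limma 3.58.1 (R 4.3.3) was fitted on all 8 arrays. Tested on simulated data for these 19936 genes, the fit called 76% of genes changed by 0.5 on the log2 scale. It called 97% of those changed by 1, with 7 false among 180 calls. The simulation drew independent normal values with each gene's own SD and changed 200 genes. It held no correlation between same-numbered arrays, so its rates are for that setting only.

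Same-numbered arrays correlated at 0.138 to 0.295 in their deviations from the group means (other numbers at most 0.111), which meets the criterion set for pairing (every pair above 0.1). The evidence is in the data, not the labels. The fit, its intervals and the permutations are unpaired, and blocked values are given where they change a call. The labels give no extraction or scan batch. The number of arrays limits the precision (median SE 0.0718 over all genes).

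The members and lists were chosen with earlier results of these data known. Named genes were the 9 members, Vhl, Egln3 (named after its value was seen), up to 4 called genes with the largest change from each pathway list, the likeness matches, and those said to be named after their values were seen. The uncalled list members given by value to describe a list were also chosen after their values were seen. The alternatives were quantile normalization, median centring, the upper 60% of probe sets, array weights, a robust eBayes with trend, averaging of probe sets, the replicate block, a threshold of 0.01, and leaving out arrays.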

Additional observations from a re-analysis of the deposited data

Results flagged for a closer look

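Among 64 groups of 4 arrays examined for the genes named, 2 held an array far from the other 3 by Dixon's criterion; chance gives about 1 in 20. Hk1 read 12.6255 on control array 3, while the other control arrays read 12.546 to 12.558. Glud1 read 11.899 on control array 1, while the other control arrays read 11.80 to 11.81. None of the 9 gluconeogenesis and fructose genes met that criterion, nor did Vhl.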

How the results depend on the processing

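Pcx and Pck2 stayed lower and past the threshold in all 17 alternatives run for them. The number of the 9 genes called was 2 in each alternative except without mutant arrays 3 and 4 together, where Slc37a4 made it 3. Pck1, G6pc and Fbp1, which had not passed, changed sign: without mutant arrays 3 and 4 the log2 differences of Pck1 and G6pc were -0.00603 and -0.0225, and that of Fbp1 was 0.0685 after quantile normalization and ran from -0.0575 to 0.0175 with 1 array left out. Over all genes 1442 passed, 602 at an adjusted p under 0.01 and 902 to 1368 with 1 array left out, the lowest being 917 without mutant array 2, 903 without control array 2 and 902 without control array 3. Vhl kept its direction but did not pass with the replicate block (log2 difference 0.29), without mutant arrays 1 and 2 (0.35), without mutant arrays 3 and 4 (0.23) or at the 0.01 threshold (0.29); with 1 array left out it ran from 0.25 to 0.35.

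After quantile normalization the 1 regulator called was Ppargc1a, not Irs1. Without mutant array 1 the regulator count was also 1, but neither Irs1 nor Ppargc1a passed (limma adjusted p 0.0956 and 0.0712). The same held without mutant arrays 1 and 2 (0.0590 and 0.168). The regulator called in those settings is not named here. Without mutant arrays 1 and 2 the calls of Slc5a10, Slc25a13 and Pfkm ended (limma adjusted p 0.0723, 0.0725 and 0.153), and without mutant arrays 3 and 4 those of Slc5a10, Slc25a13, Pfkm and Glud1 (0.100, 0.0916, 0.0624 and 0.110).

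The count of fructose and polyol genes called was 1 with the replicate block, 1 without mutant arrays 1 and 2, 0 without mutant arrays 3 and 4, 1 at the 0.01 threshold and 1 to 2 with 1 array left out. The carbon supply count of 6 became 10 after quantile normalization, 3 without mutant arrays 3 and 4, 2 at the 0.01 threshold and 3 to 6 with 1 array left out. The regulator count of 1 became 0 under median centring, the replicate block, the mean of probe sets, without mutant arrays 3 and 4 and at the 0.01 threshold. It became 2 with the upper 60% of probe sets, with trend and robust and with array weights, and was 0 to 1 with 1 array left out. The counts of shared reversible steps (5 in every alternative) and of opposing one-way steps (4 to 6) stayed within 1.5 times.

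The log2 difference of Pck2 minus Pck1 was -0.54 with the replicate block (exact p = 0.125, the smallest 4 pairs allow), -0.73 without mutant arrays 1 and 2, -0.35 without mutant arrays 3 and 4 and -0.65 to -0.47 with 1 array left out. That of Fbp2 minus Fbp1 reached an exact p of 0.0286 after quantile normalization (-0.21) and ran from -0.20 to -0.12 with 1 array left out. That of G6pc3 minus G6pc turned to 0.12 without mutant arrays 3 and 4 and ran from -0.174 to 0.0338 with 1 array left out. The replicate block changed no call of the 9 genes. The cause of these shifts was not tested. With 4 arrays a group, differences near the median SE cannot be resolved. Some well above it did not pass either, such as those of Khk (0.18, SE 0.0698) and Fbp2 (-0.17, SE 0.0696).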
